A study of Mus musculus with 12 samples.

Results

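The Fos and Jun genes encode the basic leucine zipper proteins that pair up as the transcription factor AP-1. The 6 genes described here, Fos, Fosb, Fosl2, Jun, Junb and Jund, were chosen by symbol, and all 6 were found among the 52636 genes of both deposited expression tables. The study sequenced polyadenylated RNA from hippocampi of wild-type mice of the C57BL6/J strain, 18 weeks old, grouped by how readily they extinguished fear. There were 3 low-extinction males, 3 high-extinction males, 3 low-extinction females and 3 high-extinction females, with 1 library from each mouse. The groups share genotype, strain, age and tissue, and differ by sex and extinction level. The labels do not give the behavioural threshold or the time between the last test and dissection, and no group without fear training was analysed here.

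Fos proteins cannot bind DNA alone and pair with a Jun protein, whereas Jun proteins can also pair with each other. In neurons, synaptic activity and calcium entry switch on Fos, Fosb and Junb within minutes as immediate early genes, through kinases that act on factors already present at their promoters, while Jund is made more evenly. In the hippocampus these genes are widely used as marks of recently active cells, and AP-1 is linked to the lasting changes that follow learning.

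Activity reaches these genes in part through their promoters, so the stretch before the start site is shown. It is given for Fos, Fosb and Junb, which were lower at low extinction in the study's own test in at least 1 sex. It is also given for Jun, which was not called in either sex. The sequences are from RefSeq on GRCm38.p6, 5′ to 3′ on the gene's own strand, and all 6 members matched that table. Fos is shown at chr12:85473640-85473889 (plus strand), Fosb at chr7:19310052-19310295 (minus strand), Junb at chr8:84978749-84978998 (minus strand) and Jun at chr4:95052223-95052472 (minus strand). Capitals mark TGACG, the core of the cyclic AMP response element to which CREB binds, the TATA box letters TATAAA and, in Jun, a match to the site of MEF2 factors.
Fos: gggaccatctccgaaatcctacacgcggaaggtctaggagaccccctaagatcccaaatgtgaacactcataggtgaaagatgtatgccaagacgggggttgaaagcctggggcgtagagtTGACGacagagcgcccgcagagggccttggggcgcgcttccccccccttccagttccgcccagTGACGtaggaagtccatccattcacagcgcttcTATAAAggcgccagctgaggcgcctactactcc
Fosb: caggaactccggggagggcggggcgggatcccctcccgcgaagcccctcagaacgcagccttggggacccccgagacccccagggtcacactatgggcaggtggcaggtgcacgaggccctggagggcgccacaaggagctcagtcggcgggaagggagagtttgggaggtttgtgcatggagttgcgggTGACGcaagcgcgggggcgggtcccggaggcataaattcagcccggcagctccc
Junb: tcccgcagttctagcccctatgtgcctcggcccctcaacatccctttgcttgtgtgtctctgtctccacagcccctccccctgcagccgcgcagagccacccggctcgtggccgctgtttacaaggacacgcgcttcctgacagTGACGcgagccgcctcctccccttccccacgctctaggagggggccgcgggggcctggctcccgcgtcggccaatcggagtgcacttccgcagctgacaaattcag
Jun: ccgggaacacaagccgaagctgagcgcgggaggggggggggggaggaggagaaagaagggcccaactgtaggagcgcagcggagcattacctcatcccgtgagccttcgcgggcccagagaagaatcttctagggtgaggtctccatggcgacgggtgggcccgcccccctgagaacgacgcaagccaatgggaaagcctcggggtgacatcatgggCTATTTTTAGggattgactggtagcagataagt
TGACG began 129 and 66 bases before the RefSeq start of Fos, 60 bases before that of Fosb and 106 bases before that of Junb. Among 32851 RefSeq promoters, 17.8% held TGACG on either strand within 250 bases before the start. The TATAAA of Fos began 33 bases before its start, and 12.4% of promoters held these letters. The MEF2 site of Jun also began 33 bases before the start, and 2.92% of promoters held one. The full response element TGACGTCA, which contains TGACG, the AP-1 site TGANTCA and the serum response element (CArG box) were searched on both strands and matched none of the 6 members within this window, against 1.55%, 6.75% and 1.47% of promoters. Near matches, such as tgacatca in the Jun stretch above, and sites more than 250 bases before the start were not searched for. The windows of Fosl2 and Jund held none of the motifs searched, and their RefSeq starts lie 671 and 1210 bases from the GENCODE gene starts, so they are not shown.

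Levels are given in TPM, transcript abundance corrected for transcript length, which the authors scaled to the same total in every library and put in 1 table for each sex. Each library had 18170 to 19062 genes at 1 TPM or more, and genes derived from ribosomal RNA took 8.40% to 24.8% of its TPM. Of 10 hippocampal neuron markers none was at 0. The same held for every other marker list used here, so this does not tell the labelled tissue from others. In females these 10 markers summed to 1188 to 1310 TPM at low extinction against 1504 to 1591 TPM at high extinction, without overlap, and none of them was called in the authors' deposited table. Summed markers of 4 other kinds of cell or region were higher at low extinction in females without overlap. They were smooth muscle (31.0 to 50.7 TPM against 15.7 to 25.4 TPM, 3 markers), meningeal fibroblasts (57.3 to 68.7 TPM against 48.0 to 56.6 TPM, 4 markers), thalamus and habenula (66.1 to 76.0 TPM against 50.8 to 59.7 TPM, 5 markers) and microglia (86.3 to 101.7 TPM against 80.5 to 85.3 TPM, 4 markers). In males 4 ependymal markers summed to 8.36 to 17.1 TPM at low extinction against 27.9 to 35.1 TPM at high extinction, 3 smooth muscle markers to 16.4 to 19.8 TPM against 20.0 to 36.2 TPM, and hippocampal neuron markers overlapped, at 1180 to 1335 TPM against 1099 to 1708 TPM. The 5 choroid plexus markers overlapped in males but differed widely. From lowest to highest, not in replicate order, their sums were 55.9, 63.9 and 962 TPM at low extinction in males. At high extinction in males the sums were 327, 3022 and 3453 TPM, again from lowest to highest. In females these markers spanned 101 to 1067 TPM at low extinction against 23.0 to 1242 TPM at high extinction. The authors' deposited tables called 3 of the 4 ependymal markers, 1 meningeal marker and 0 choroid plexus or smooth muscle markers in males. In females they called 2 smooth muscle, 1 meningeal, 1 thalamic or habenular and 1 interneuron marker. None of the markers in these lists was at 0, and the part of cell makeup in the AP-1 results was not tested. In tissue libraries, fewer cells of a type and less RNA per cell cannot be told apart.

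All 6 AP-1 genes had lower mean TPM at low than at high extinction in both sexes. In the study's own DESeq2 test, Junb was lower at low extinction in both sexes, and Fos, Fosb and Fosl2 were lower in females, each at 0.74 to 0.79 times the high-extinction level. Jun and Jund passed that test in neither sex. By the authors' deposited tables, 1 of 6 members was called lower in males at an adjusted p under 0.05, where 0.389% of 20050 genes were, and 4 of 6 were called lower in females, where 0.288% of 15644 genes were. At an adjusted p under 0.1 the authors' deposited tables called 2 of 6 lower in males, beside 0.643% of genes, and 4 of 6 in females, beside 0.447%. At an unadjusted p under 0.05 they had 3 of 6 lower in males, beside 3.14% of genes with a p, and 6 of 6 in females, beside 2.82%. Junb was 1 of 2 genes among 15642 (0.0128%) called lower in both of the authors' deposited tables, the other being Dnajb1, which encodes a heat shock co-chaperone.

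**Figure D1:**
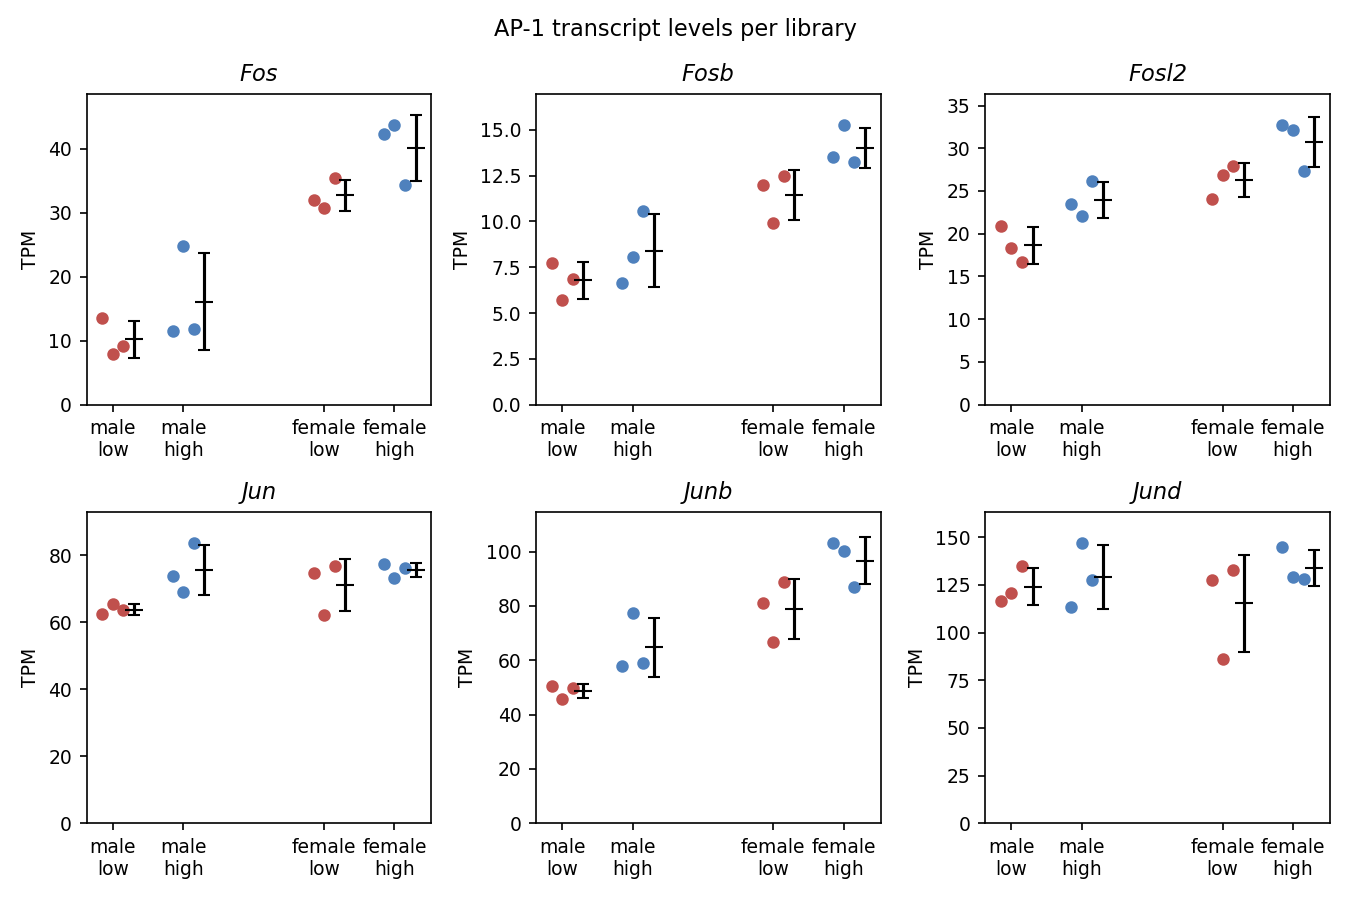
TPM (vertical axis, linear, from 0) of each AP-1 gene in every library, with low extinction in red left of high extinction in blue for each sex; the bar beside each group is the mean ± SD of 3 libraries. Low-extinction males lie wholly below high-extinction males for Fosl2, Jun and Junb, and low-extinction females wholly below high-extinction females for Fosb.

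Among the Fos proteins, Fos is the classic activity-induced partner of Jun. Its gene lies at chromosome 12, 85473890 to 85477273 (plus strand, GRCm38, GENCODE M21). Fos had 13.5, 7.98 and 9.18 TPM in low-extinction males, against 11.6, 24.8 and 11.8 TPM in high-extinction males. One high-extinction male stood far above the other 2, and the groups overlapped. Fos had 32.0, 30.7 and 35.5 TPM in low-extinction females, against 42.3, 43.8 and 34.3 TPM in high-extinction females. Here too the groups overlapped, because the highest low-extinction female exceeded the lowest high-extinction female. The authors' deposited table for females put Fos at 0.768 times the high-extinction level (log2 change -0.38, SE 0.09, DESeq2 adjusted p = 0.00530). For males the authors' deposited table gave a larger but less certain log2 change of -0.73 (SE 0.46, DESeq2 adjusted p = 0.827). In TPM terms, on the log2(TPM + 1) scale, the male difference was -0.55, and it was -0.21 without the high-extinction male of 24.8 TPM.

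Fosb encodes a relative of Fos, and an alternatively spliced, truncated and long-lived form of its protein builds up in the hippocampus with repeated activity; levels per gene do not separate the forms. The gene lies at chromosome 7, 19302696 to 19310051 (minus strand). Fosb had 7.75, 5.71 and 6.86 TPM in low-extinction males, against 6.63, 8.04 and 10.6 TPM in high-extinction males. It had 12.0, 9.91 and 12.5 TPM in low-extinction females, against 13.5, 15.3 and 13.2 TPM in high-extinction females. The male groups overlapped, and every low-extinction female was below every high-extinction female. In the authors' deposited table for females Fosb was at 0.741 times the high-extinction level (log2 change -0.43, SE 0.10, DESeq2 adjusted p = 0.00354). The male log2 change in the authors' deposited table was -0.27 (SE 0.14, DESeq2 adjusted p = 0.684).

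Fosl2 encodes Fra-2, a Fos relative that lacks the strong activation domain of Fos. Its gene spans chromosome 5, 32135801 to 32157842 (plus strand). Fosl2 had 20.9, 18.4 and 16.6 TPM in low-extinction males, against 23.5, 22.1 and 26.2 TPM in high-extinction males, with no overlap. It had 24.1, 26.9 and 28.0 TPM in low-extinction females, against 32.8, 32.1 and 27.4 TPM in high-extinction females, where the third high-extinction female lay inside the low range. The authors' deposited tables gave nearly equal changes in both sexes, at 0.794 times the high-extinction level in males (log2 change -0.33, SE 0.10, DESeq2 adjusted p = 0.0810) and 0.790 times in females (log2 change -0.34, SE 0.07, DESeq2 adjusted p = 0.00118). Only the female value passed the threshold.

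Among the Jun proteins, Junb is induced by activity together with Fos and is a weaker activator than Jun at single AP-1 sites. The gene lies at chromosome 8, 84974484 to 84978718 (minus strand). Junb had 50.4, 45.6 and 49.6 TPM in low-extinction males, against 57.7, 77.3 and 59.1 TPM in high-extinction males. The male groups did not overlap, and the high-extinction male with the most Fos also had the most Junb. Junb had 81.1, 66.9 and 88.8 TPM in low-extinction females, against 103.1, 100.1 and 86.9 TPM in high-extinction females, with 1 low-extinction female above 1 high-extinction female. Junb was lower at low extinction in both of the authors' deposited tables, at 0.762 times the high-extinction level in males (log2 change -0.39, SE 0.10, DESeq2 adjusted p = 0.0309) and 0.768 times in females (log2 change -0.38, SE 0.08, DESeq2 adjusted p = 0.00283). In TPM terms, on the log2(TPM + 1) scale, the male difference of -0.40 became -0.26 without that high-extinction male, and the female difference of -0.30 became -0.18 without the low-extinction female of 66.9 TPM. Junb overlaps the gene Prdx2 on the other strand by 351 bases, the strand setting of the read counting is unknown from the sources, and Prdx2 was called in neither of the authors' deposited tables (log2 changes of -0.00 in males and -0.06 in females). Prdx2 had 179.2, 116.5 and 124.0 TPM in low-extinction males against 107.2, 200.9 and 119.5 TPM in high-extinction males, and 118.4, 102.1 and 126.5 TPM in low-extinction females against 199.7, 115.5 and 108.2 TPM in high-extinction females. In each sex the library with the most Prdx2 was also the one with the most Junb, and the part of the overlap in the Junb values was not tested.

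Jun, the member whose protein pairs with itself as well as with Fos and is activated by JNK kinases, has its gene at chromosome 4, 95049034 to 95052222 (minus strand). Jun had 62.4, 65.4 and 63.6 TPM in low-extinction males, against 73.9, 69.1 and 83.7 TPM in high-extinction males. These groups did not overlap, and the low-extinction males lay close together. Jun had 74.7, 62.3 and 76.7 TPM in low-extinction females, against 77.4, 73.3 and 76.2 TPM in high-extinction females. Those groups overlapped, with 1 low-extinction female below the rest. By the authors' deposited tables the log2 change was -0.22 in males (SE 0.08, DESeq2 adjusted p = 0.244) and -0.16 in females (SE 0.07, DESeq2 adjusted p = 0.371), neither past the threshold. Junos, which overlaps Jun by 689 bases on the other strand, had 3.02, 2.69 and 3.23 TPM in low-extinction males against 0.991, 1.90 and 1.68 TPM in high-extinction males, and reads of the pair cannot be told apart if counting ignored strand. Junos had 1.38, 1.16 and 3.53 TPM in low-extinction females against 2.12, 2.04 and 2.00 TPM in high-extinction females, where the groups overlapped. The authors' deposited table for males did not call Junos (log2 change 0.95, DESeq2 adjusted p = 0.215).

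Jund encodes the Jun protein with the most even expression across tissues, and its gene lies at chromosome 8, 70698949 to 70700616 (plus strand). Jund had 116.4, 120.8 and 134.9 TPM in low-extinction males, against 113.4, 147.0 and 127.4 TPM in high-extinction males. It had 127.4, 86.2 and 132.8 TPM in low-extinction females, against 144.7, 129.2 and 127.9 TPM in high-extinction females. The groups overlapped in both sexes, and the low-extinction female of 86.2 TPM was far below all other libraries. The authors' deposited tables gave log2 changes of -0.04 in males (SE 0.08, DESeq2 adjusted p = 0.999) and -0.29 in females (SE 0.11, DESeq2 adjusted p = 0.231), neither past the threshold. Without that female the female difference on log2(TPM + 1) was -0.04 in place of -0.24. Jund overlaps Gm11175 on the other strand by 919 bases, and Gm11175 was between 0 and 6.95 TPM in the 12 libraries.

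The TPM values were tested with limma on log2(TPM + 1), over all genes that averaged 1 TPM or more. By limma with Benjamini-Hochberg adjustment 0 of 6 members were called in males, where 0% of 18303 genes were, and 0 of 6 in females, where 0.0107% of 18668 genes were. At an unadjusted limma p under 0.05, 3 members were lower in males, where 3.93% of genes were, and 3 in females, where 0.954% were. Members' median log2 difference was -0.30 in males and -0.25 in females, beside medians over all genes of -0.02 and 0.06. In males 3 of 6 members had every low-extinction library below every high-extinction library, as had 7.28% of genes. In females 1 of 6 did, as had 1.98% of genes. The direction alone, a lower mean at low extinction, was seen in 6 of 6 members in each sex, against 56.9% of genes in males and 30.9% in females on log2(TPM + 1). For the authors' fold changes below 0, the shares were 51.6% of genes in males and 55.2% in females.

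Averaged over both sexes on log2(TPM + 1), Junb differed by -0.35 (SE 0.09) and Fosl2 by -0.28 (SE 0.07) between low and high extinction. An exact two-sided permutation of labels within sex, whose smallest possible p is 0.005, gave p = 0.01 for each of these genes. The same exact permutation test gave p = 0.03 for Jun (-0.16), p = 0.035 for Fosb (-0.27), p = 0.05 for Fos (-0.41) and p = 0.255 for Jund (-0.15), none adjusted for the number of genes. The average for Fos was -0.24 without the high-extinction male of 24.8 TPM (exact permutation p = 0.115). With any 1 library left out, the exact permutation p ran from 0.005 to 0.02 for Junb and from 0.005 to 0.025 for Fosl2. It crossed 0.05 with the choice of library for Fosb (exact permutation p of 0.01 to 0.1), Jun (0.01 to 0.075) and Fos (0.025 to 0.16). By limma over the same 12 libraries with Benjamini-Hochberg adjustment, 0 of 6 members were called, as were 0% of 18499 genes, and the smallest adjusted p among members was 0.389 for Junb and Fosl2. At an unadjusted limma p under 0.05, 5 members were lower on average, where 1.91% of genes were. Within 1 sex the exact test cannot give a p below 0.1, which Fosl2, Jun and Junb reached in males and Fosb in females.

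The fold changes of both of the authors' deposited tables, which come from different mice, were also combined by an inverse-variance mean. Junb was at 0.765 times the high-extinction level (log2 -0.39, SE 0.07, adjusted p = 8.90e-06, z test with Benjamini-Hochberg adjustment over 32429 genes). Fosl2 was at 0.792 times (log2 -0.34, SE 0.06, adjusted p = 1.47e-05), Fosb at 0.768 times (log2 -0.38, SE 0.08, adjusted p = 0.00161) and Fos at 0.761 times (log2 -0.39, SE 0.09, adjusted p = 0.00327). So 4 of 6 members were called lower, where 0.191% of genes were. Jun missed the threshold (log2 -0.19, SE 0.05, adjusted p = 0.0532), as did Jund (log2 -0.13, SE 0.07, adjusted p = 0.776). Fos rests on the female table here: with an unweighted mean of both sexes its adjusted p was 0.635. Each of these 6 values uses the authors' standard errors as deposited.

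**Figure D2:**
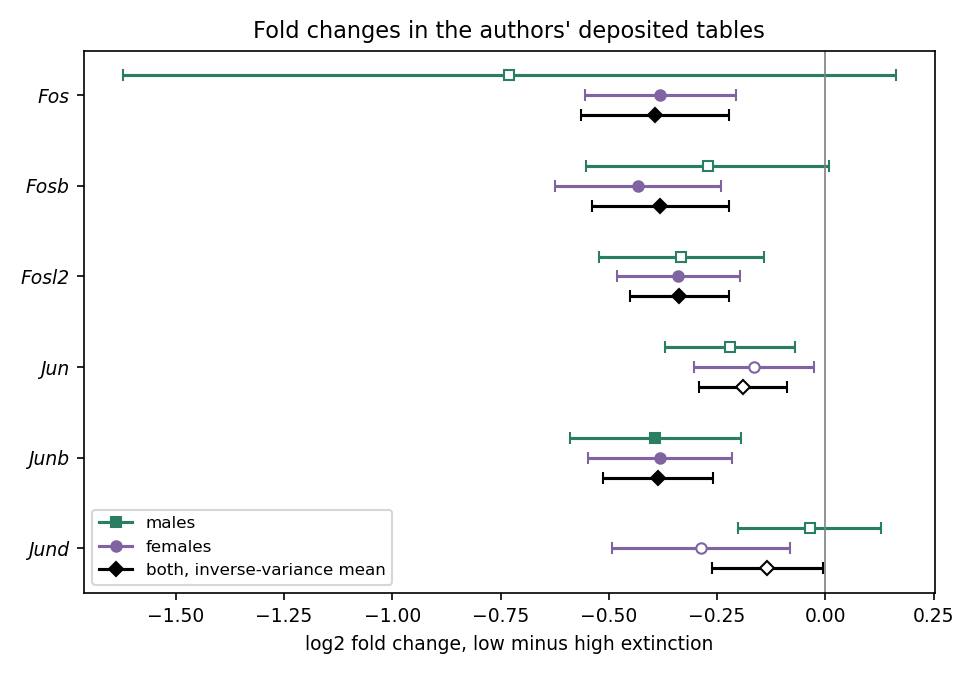
Log2 fold change, low minus high extinction (horizontal axis), of each AP-1 gene in the authors' deposited DESeq2 table for males (squares) and females (circles) and in the inverse-variance mean of both (diamonds); bars are 95% intervals and filled symbols have an adjusted p under 0.05. All points lie left of 0, and Junb is filled in all 3.

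The male and female changes were compared directly. With limma on log2(TPM + 1), 0 of 6 members were called for a difference between the male and the female change, where 0.00541% of 18499 genes were, and 0 members had an unadjusted p under 0.05. The differences of the authors' log2 changes, male minus female, had the widest 95% interval for Fos (-1.26 to 0.56) and the narrowest for Jun (-0.26 to 0.15). The interval was -0.23 to 0.24 for Fosl2, -0.27 to 0.25 for Junb, -0.01 to 0.51 for Jund and -0.18 to 0.50 for Fosb. A change that passed in females and not in males, as for Fos, Fosb and Fosl2, was therefore not shown to differ between the sexes.

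The level of each gene set its place in the AP-1 pool. Jund was the highest of the 6 in 12 of 12 libraries and Fosb the lowest in 12 of 12. Junb exceeded Jun in 6 of 6 female libraries and in 1 of 6 male libraries. Fos exceeded Fosl2 in 6 of 6 female libraries and in 1 of 6 male libraries, which was the high-extinction male of 24.8 TPM. Fos exceeded Fosb in 6 of 6 male libraries, with means of 10.2 ± 2.93 and 6.78 ± 1.02 TPM in low-extinction animals and 16.1 ± 7.58 and 8.41 ± 1.99 TPM in high-extinction animals (SD, n = 3 each). The 6 genes together summed to 272 ± 8.45 TPM in low-extinction males, against 318 ± 30.8 TPM in high-extinction males (SD, n = 3 each), and every low-extinction male was below every high-extinction male. They summed to 336 ± 47.5 TPM in low-extinction females, against 391 ± 24.1 TPM in high-extinction females (SD, n = 3 each), where the groups overlapped. Fos, Fosb and Fosl2 together made up 13.1% ± 2.13 of the sum of the 6 genes in low-extinction males against 15.2% ± 0.618 in high-extinction males. Their share was 21.2% ± 2.37 in low-extinction females against 21.7% ± 1.36 in high-extinction females (SD, n = 3 each in both sexes). Fosl1, another Fos-family gene, was not counted in these sums. Its means were 5.25 TPM in low-extinction and 4.55 TPM in high-extinction males, and 5.49 and 4.87 TPM in females.

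**Figure D3:**
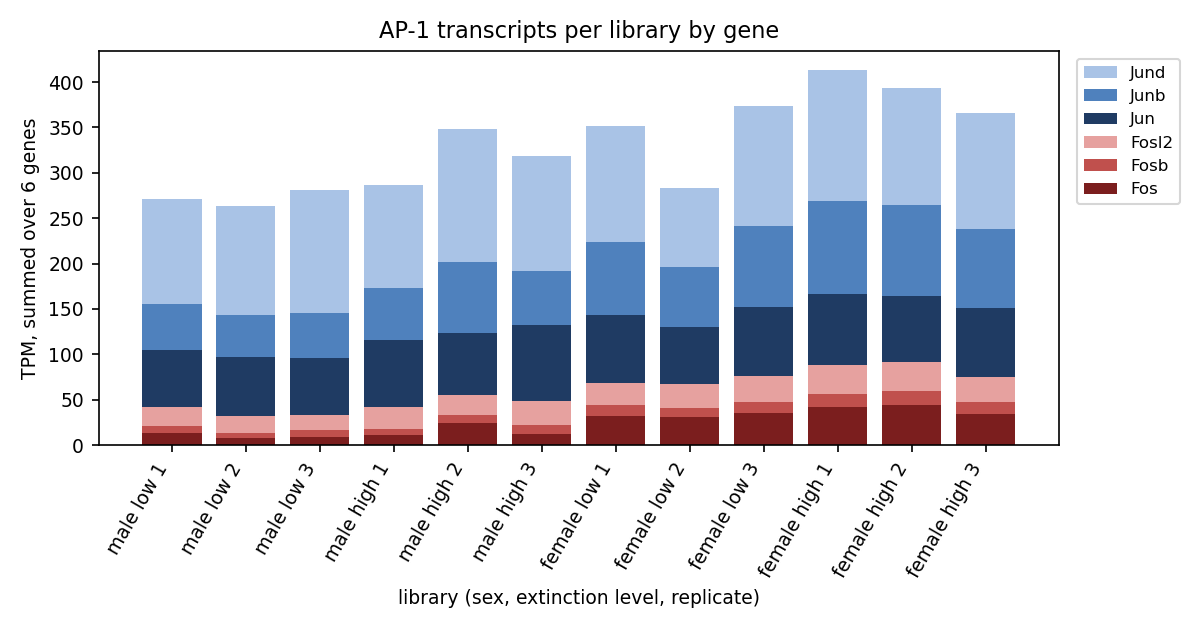
TPM summed over the 6 AP-1 genes (vertical axis, linear, from 0) in each of 12 libraries, stacked by gene with Fos, Fosb and Fosl2 in reds and Jun, Junb and Jund in blues. Jund is the thickest band in every bar, and the red bands are thicker in the female libraries.

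Female libraries held more Fos than male libraries at either extinction level. The female mean was 3.20 times the male mean at low extinction and 2.50 times at high extinction, higher than for 99.9% of genes at each level. Female over male ratios at low and at high extinction were 1.69 and 1.67 for Fosb, 1.63 and 1.49 for Junb, 1.41 and 1.28 for Fosl2, 1.12 and 1.00 for Jun and 0.931 and 1.04 for Jund, beside medians over all genes of 1.10 and 1.03. All 6 female libraries had more Fos than all 6 male libraries, and the sexes overlapped for the other 5 genes. Each sex has its own table, so sex and table cannot be told apart, and these ratios carry no test.

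The spread between mice differed by gene and sex. In males the SD of log2(TPM + 1) within groups was 0.49 for Fos, larger than for 96.9% of 13006 genes with at least 5 TPM, and 0.10 for Jun, larger than for 28.3%. In females it was 0.15 for Fos, larger than for 66.8% of 13239 genes, and 0.25 for Jund, larger than for 88.2%. The large male value for Fos came with the high-extinction male at 0.96 above the male mean on this scale. That mouse was also the highest male for Junb (0.46) and Jund (0.22) but sat at -0.01 for Jun. The low-extinction female of 86.2 TPM Jund was the lowest female for Fos (-0.23), Fosb (-0.32), Jun (-0.23), Junb (-0.37) and Jund (-0.51), and not for Fosl2 (-0.08).

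**Figure D4:**
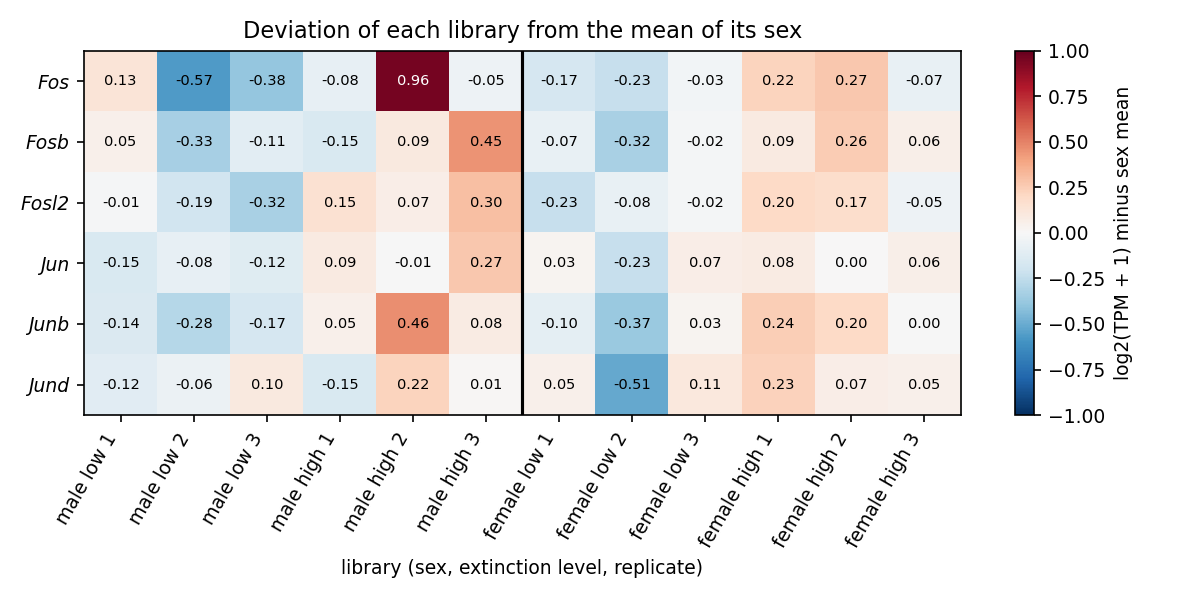
Deviation of log2(TPM + 1) from the mean of the sex (colour and printed value, from -1 in blue to 1 in red) for each AP-1 gene (rows) in each library (columns), with low extinction left of high extinction within each sex. High-extinction male 2 is high for Fos (0.96) and Junb (0.46), and low-extinction female 2 is low for Jund (-0.51).

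Pairs of members were compared across the 12 libraries after centring on the mean of each sex. Fos and Junb went together most closely (Pearson r = 0.861, permutation p = 0.00041, Benjamini-Hochberg adjusted p = 0.00615 over 15 pairs; Spearman rho = 0.832, permutation adjusted p = 0.0228). Their r was 0.715 without the 2 libraries farthest from the median of Fos, 0.908 within the 6 males and 0.917 within the 6 females. It was the only 1 of 15 pairs to pass by Pearson r, while 6 of 15 passed by Spearman rho, namely all 6 pairs among Fos, Fosb, Fosl2 and Junb. With each library centred on its own extinction group, 1 pair passed by Pearson r and 0 by Spearman rho. Jun and Jund took part in none of the pairs that passed, and the lowest r was 0.143 for Fosl2 with Jund. Members of a library share its scaling and its cell makeup, whose part in these correlations was not tested.

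Other genes were ranked by how closely they followed the mean of the 6 centred members over the 12 libraries, among 12921 genes with at least 5 TPM in both tables, as a description without a test. The 8 nearest were Sdhc (r = 0.947), Dnajb1 (0.935), Ier5l (0.928), Tmem184b (0.913), Sardh (0.911), Gatad2a (0.901), Fasn (0.897) and Pqlc1 (0.889). Dnajb1 was called lower at low extinction in the authors' deposited tables for males (log2 -0.39, DESeq2 adjusted p = 0.0118) and for females (log2 -0.28, DESeq2 adjusted p = 0.0104). The others of these 8 were called in neither, and Sdhc, the nearest, had log2 changes of -0.08 in males and -0.10 in females. Nearest to single members were Etl4 (0.907) and Arc (0.901) for Fos, Gm5873 (0.909) and Pcdhac2 (0.894) for Fosb, Nr4a3 (0.947) and Tuba8 (0.934) for Fosl2, Per1 (0.950) and Gatad2a (0.948) for Junb, Mpp2 (0.913) and Frat2 (0.909) for Jun, and Mfsd5 (0.965) and Hcn2 (0.960) for Jund. Arc, Nr4a3 and Per1 are themselves activity-induced genes, while the others nearest to single members are not in the list of immediate early genes used below.

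The wider pathway was read from the authors' deposited tables by gene lists, counting genes that have an adjusted p. Of all genes with an adjusted p, 0.389% were called lower and 0.115% higher at low extinction in males, and 0.288% and 0.569% in females. At an unadjusted p under 0.05 in either direction, the shares of all genes with a p were 4.88% in males and 5.29% in females. Of the kinases that act on Fos and Jun proteins, 0 of 18 were called in males and 0 of 18 in females by DESeq2, with 0 in males and 1 in females at an unadjusted p under 0.05 (medians -0.04 in each sex, beside -0.01 over all genes in each). The smallest p were those of Map2k1, which encodes MEK1 (female log2 -0.12, DESeq2 adjusted p = 0.419), and Mapk3, which encodes ERK1 (female log2 -0.12, DESeq2 adjusted p = 0.583), by the authors' deposited table. Among factors that bind the Fos and Jun promoters, 0 of 17 were called in males and 0 of 17 in females by DESeq2 (medians -0.03 and -0.04), with 3 and 2 at an unadjusted p under 0.05. Those in males were Creb1 and Ep300, with lower levels at low extinction, and Elk1, with a higher level (log2 0.17, DESeq2 adjusted p = 0.503). Srf, which binds the serum response element, and Crtc1, a CREB coactivator, had the smallest p of that list in the authors' deposited tables, each with a female log2 change of -0.19 (DESeq2 adjusted p = 0.248 for Srf and 0.319 for Crtc1). The male log2 change was -0.14 for Srf and 0.11 for Crtc1, the latter opposite in sign to its female change.

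Of the other bZIP genes that can pair or compete with AP-1, the authors' deposited tables called 1 of 23 lower in males and 0 of 22 in females (medians -0.01 and -0.11). Of all genes, 0.389% and 0.288% were called lower. At an unadjusted p under 0.05 in either direction there were 3 and 4, beside 4.88% and 5.29% of all genes with a p. Those in males were Nfil3 and Nfe2l2, with lower levels at low extinction, and Cebpd, with a higher level (log2 0.50, DESeq2 adjusted p = 0.0635). The called gene was Nfil3, a repressor of the same protein class, with 6.51 ± 0.254 TPM in low-extinction males against 9.80 ± 1.27 TPM in high-extinction males (SD, n = 3 each). The authors' deposited table for males put Nfil3 at 0.683 times the high-extinction level (log2 -0.55, SE 0.14, DESeq2 adjusted p = 0.0288), and its female log2 change was -0.38 (DESeq2 adjusted p = 0.286). Fosl1, the remaining Fos-family gene, was called in neither, with log2 changes of 0.21 in males and 0.09 in females in the authors' deposited tables, opposite in sign to those of the 6 members.

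Other immediate early genes were lower at low extinction in part: 2 of 34 were called lower in males and 6 of 34 in females, and 0 were called higher, in the authors' deposited tables, beside 0.389% and 0.288% of all genes called lower. At an unadjusted p under 0.05 in either direction there were 10 and 15, beside 4.88% and 5.29% of all genes with a p. The list's median log2 change was -0.21 in males and -0.20 in females, beside -0.30 and -0.36 for the 6 AP-1 members. In males these were Egr2, a zinc finger factor (log2 -1.05, DESeq2 adjusted p = 0.00199), and Klf10 (log2 -0.44, DESeq2 adjusted p = 0.0181), by the authors' deposited table. For females, those called in the authors' deposited table were the zinc finger factors Egr4 (log2 -0.58), Egr1 (-0.34) and Egr3 (-0.23), the nuclear receptor Nr4a3 (-0.29), the synaptic gene Arc (-0.35) and the ERK phosphatase Dusp6 (-0.28), with DESeq2 adjusted p between 2.03e-05 and 0.0194.

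Genes known as Fos or FosB targets in neurons were mostly not called: 0 of 17 passed in males and 1 of 16 in females in the authors' deposited tables by DESeq2, with 0 and 7 at an unadjusted p under 0.05 in either direction, where 4.88% and 5.29% of all genes were (medians 0.07 and -0.14). Called lower were 0.389% of all genes in males and 0.288% in females. The called gene was Sst, the neuropeptide somatostatin of a class of interneurons, with 346 ± 29.9 TPM in low-extinction females against 412 ± 34.5 TPM in high-extinction females (SD, n = 3 each). The authors' deposited table for females put Sst at 0.792 times the high-extinction level (DESeq2 adjusted p = 0.00334). Sst is also the interneuron marker called in females above, so the same change is counted in both places. Of 12 genes listed for the decay of short-lived transcripts such as those of Fos, the authors' deposited tables called 0 lower in either sex. They called 1 higher in males and 2 higher in females, beside 0.115% and 0.569% of all genes called higher. Those called were Tia1 and Tial1, and no other gene of the list was called. The list was chosen with earlier results of these data known, so its count is a description and not a test. Tia1, an RNA-binding protein found in stress granules, was higher at low extinction in males (log2 0.28, DESeq2 adjusted p = 0.0441) and females (log2 0.23, DESeq2 adjusted p = 0.0363) in the authors' deposited tables. Its relative Tial1 was called higher in the authors' deposited table for females (log2 0.22, DESeq2 adjusted p = 0.0422).

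**Figure D5:**
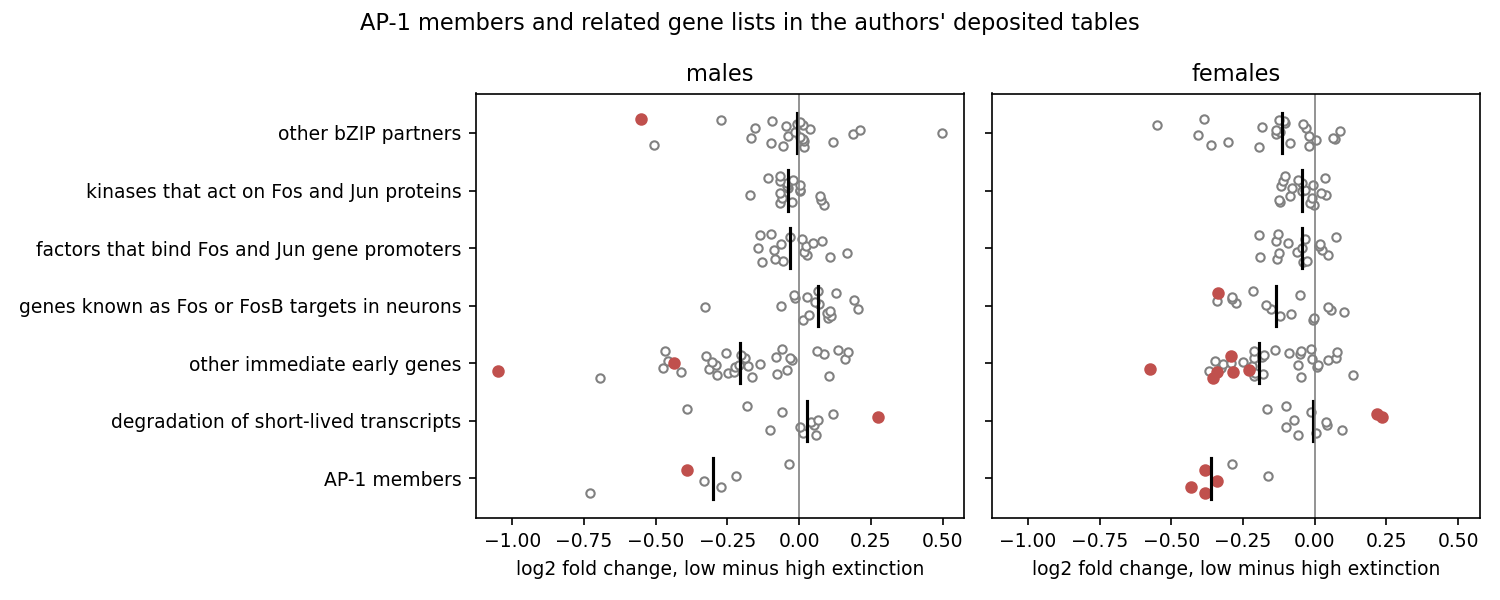
Log2 fold change, low minus high extinction (horizontal axis), in the authors' DESeq2 table for males (left) and females (right) for each gene of 6 related lists and the AP-1 members (rows); filled red points have an adjusted p under 0.05 and the black bar is the list's median. The medians of the AP-1 members (-0.30 and -0.36) and of the other immediate early genes (-0.21 and -0.20) lie left of 0, and those of the kinases lie at -0.04.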

How the data were processed

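RNA was measured in 12 libraries, 1 per mouse. Per the labels' protocols, total RNA from frozen hippocampi was enriched for polyadenylated RNA and made into libraries with an mRNA kit. Per the submitters' processing notes the tools were TopHat2 and Bowtie2, HTSeq, StringTie 1.3.3b and DESeq2, with genome builds GRCm38.p5 and mm10; which file came from which tool is not stated. The authors deposited TPM for each library, 1 table for each sex. Per the file headers, the authors' DESeq2 table for each sex holds the mean normalized count (a signal), the log2 fold change with its standard error, a score (the test statistic), and p-values before and after adjustment. Those headers do not name the direction. Across genes the deposited log2 fold change had r = -0.578 (males) and -0.463 (females) with low minus high TPM, so its sign was turned to read low minus high extinction.

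Columns were matched to mice by the names in the labels, and replicate numbers pair no mice. Without counts per library, no count model was used. Genes that averaged 1 TPM or more were tested on log2(TPM + 1), a scale that shrinks changes of low genes, with limma 3.58.1 (trend, R 4.3.3) and Benjamini-Hochberg adjustment at 0.05 over all genes, within each sex and, for the average and the difference between sexes, over 4 group means. Single members were tested with an exact permutation (20 assignments per sex, 400 for the average). Pair correlations used 100000 permutations within sex. Python 3.11.15 and scipy 1.17.1 were used, and each test over all genes was also run on simulated data. The genes named are all 6 members, the 8 genes most like their mean and 2 for each member, and, from each list, the called genes (at most 8 immediate early genes) or the 2 of smallest p. The members and lists were chosen with earlier results of these data known. Of 20 listed promoter-binding factors 18, and of 35 listed immediate early genes 34, are in the tables; Zfp36 and Npas4 stand in more than 1 list.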

Additional observations from a re-analysis of the deposited data

How the results depend on the processing

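No paired analysis was possible because replicate numbers are only record order and link no mice across groups. The authors' DESeq2 tables could not be refitted without single libraries, since counts per library were not analysed here. Alternatives were other pseudocounts, filters, scalings and variance models, a joint fit and leaving out each replicate. Members called by limma numbered 0 under all of them. Among 372 alternative values for members' changes in males, in females, on average or in the combined tables, 4 were reversed, the average of Jund counting under both of its tests. Other filters, variance models and the joint fit alter the test but not a member's log2 change, so those values could not reverse. The averages of every member count under both tests, so the 372 values are not separate checks of direction. Jund in males ranged from -0.14 to 0.04 (0.0420 without high-extinction replicate 2) and Jun in females from -0.15 to 0.0019 (0.00189 without low-extinction replicate 2). Without both of these libraries, a choice made after seeing the data, the average for Jund was 0.000890 (-0.20 to -0.05 with 1 library left out), that for Junb was -0.22 in place of -0.35 (exact permutation p = 0.04 in place of 0.01) and that for Fosl2 -0.32 (exact permutation p = 0.03). The exact permutation p of the average stayed under 0.05 for Junb and Fosl2 with any 1 library left out. At an adjusted p of 0.01, 0 male members passed by the authors' values, and 2 did at 0.1. Fos combined over the sexes lost its call with an unweighted mean (adjusted p = 0.635).

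Counts over all genes by limma were 0 in males, 2 without ribosomal RNA-derived genes, 1 in a joint fit and 2 to 6 with a replicate left out. In females they were 2, 1 without a filter, 4 at 5 TPM, 0 in a joint fit and 4 to 10 with a replicate left out. For the average they were 0, 0 to 3 with a replicate left out and 4 without both libraries above, and for the sex difference 1, 2 without a filter or a trend and 1 to 4 with a replicate left out. The male minus female difference changed sign with a replicate left out for Fos (-0.47 to 0.075), Fosb (-0.13 to 0.17), Junb (-0.21 to 0.032) and Jund (-0.014 to 0.30). Centred on extinction groups, r was -0.392 for Fos with Jun and -0.210 for Fosl2 with Jund.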

Other observations

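Fosb over Fos was 0.679 ± 0.0932 in low-extinction males against 0.597 ± 0.286 in high-extinction males (SD, n = 3 each), and single high-extinction males spanned 0.324 to 0.894. It was 0.349 ± 0.0259 in low-extinction females against 0.352 ± 0.0331 in high-extinction females (SD, n = 3 each). The sum of Jun, Junb and Jund over that of Fos, Fosb and Fosl2, without Fosl1, was 6.75 ± 1.16 in low-extinction males against 5.59 ± 0.270 in high-extinction males. It was 3.76 ± 0.505 in low-extinction females against 3.62 ± 0.286 in high-extinction females (SD, n = 3 each in both sexes). These ratios were not tested, and sex and table cannot be told apart.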
